A study of Mus musculus with 12 samples.

Results

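The integrated stress response was described here through Eif2ak1, which encodes the heme-regulated kinase HRI, and through Atf4, Atf5, Ddit3, Asns, Trib3, Chac1, Sesn2 and Ppp1r15a. These 9 genes were taken by symbol out of 56748 genes in the count table, and by gene name out of 19323 splicing events. RNA sequencing was performed in murine G1E-ER4 cells, a proerythroblast line that carries a GATA1-estrogen receptor fusion gene under puromycin selection and matures when estradiol activates the fusion. Sf3b1 encodes a splicing factor of the U2 particle, and K700E is the substitution most often found in myelodysplastic syndromes with ring sideroblasts. The Sf3b1 K700E/+ group was a CRISPR-Cas9 edited heterozygous clone, and the Sf3b1 +/+ group an isogenic clone that had passed through the same hygromycin selection and flippase removal of the cassette. Both were treated with β-estradiol for 24 h, and 3 libraries of each genotype were compared. Each genotype was 1 clone, so the genotype and the clone cannot be told apart, and the labels do not say whether the libraries of a genotype came from separate cultures. The p-values therefore measure the spread between these libraries.

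In the integrated stress response, any of several kinases phosphorylates the alpha subunit of the initiation factor eIF2, which lowers translation of most messengers while those of Atf4, Atf5 and Ddit3 are translated better. ATF4 then binds with C/EBP partners to a composite site in genes of amino acid supply and feedback, and PPP1R15A brings a phosphatase to eIF2 and reverses the mark. In erythroid cells HRI is the main kinase of this pathway: it is held inactive by heme, matches globin synthesis to heme supply, and also answers oxidative and mitochondrial stress.

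The composite site, called the C/EBP-ATF response element, was searched as TGATGNAA on both strands of RefSeq promoter windows, which run in the build GRCm38.p6 from 250 bases before to 50 bases after a gene start. The 9 genes had 10 windows, since Atf5 has more than 1 start. A match was found in Asns, Trib3 and Chac1, that is in 30% of these windows, against 3.97% of all 32851 windows. These matches are printed with the site in capitals, on the strand of the gene, because they are the letters that Asns, Trib3 and Chac1 have in common.
Asns, chr6:7693214-7693243: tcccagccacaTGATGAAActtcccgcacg
Trib3, chr2:152344028-152344057: ttagctcaggtTTACATCAgccgggcgggg
Chac1, chr2:119351038-119351067: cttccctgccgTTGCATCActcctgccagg
The site began 23 bases before the start of Asns, 193 bases before that of Chac1 and at base 15 of the Trib3 transcript. The windows of Atf5, Ddit3, Sesn2, Ppp1r15a, Atf4 and Eif2ak1 held no such letters. The ER stress element (CCAAT, then 9 bases of any kind, then CCACG, on either strand) was in none of the 10 windows and in 0.119% of all windows.

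Total counts were 44045337 to 50077827 in Sf3b1 K700E/+ libraries and 38785471 to 40702174 in Sf3b1 +/+ libraries. All 12 erythroid markers had reads, with a summed level of 9270 to 15200 CPM (counts scaled to 1000000 per library, after each total was multiplied by its TMM normalization factor of 0.972 to 1.02) in Sf3b1 K700E/+ libraries and 11300 to 15700 CPM in Sf3b1 +/+ libraries. Summed levels of markers of other lineages were lower in Sf3b1 K700E/+ libraries, but not every single marker was. At an adjusted p below 0.05 (edgeR), 2 of 2 tested granulocyte and macrophage markers and 2 of 3 mast cell and basophil markers were lower. Of megakaryocyte markers, 1 of 5 was lower, and no lymphoid marker passed the filter on low counts. Among all genes tested, 23.1% were lower. The 8 granulocyte and macrophage markers summed to 0.0468 to 0.0668 CPM in Sf3b1 K700E/+ libraries and 7.36 to 23.4 CPM in Sf3b1 +/+ libraries, with no read of Elane and Ctsg. The 6 mast cell and basophil markers summed to 1.04 to 3.56 CPM in Sf3b1 K700E/+ libraries and 9.93 to 33.7 CPM in Sf3b1 +/+ libraries, with no read of Mcpt8. The 6 megakaryocyte markers summed to 27.7 to 53.8 CPM in Sf3b1 K700E/+ libraries and 57.8 to 106 CPM in Sf3b1 +/+ libraries, with no read of Vwf. Of 6 lymphoid markers, 5 had no read, and the sum was 0 in Sf3b1 K700E/+ libraries and 0.0244 to 0.0492 CPM in Sf3b1 +/+ libraries. Reads counted for Gata1 were at 315 to 323 CPM in Sf3b1 K700E/+ libraries and 149 to 175 CPM in Sf3b1 +/+ libraries. The counts do not separate the introduced GATA1-estrogen receptor fusion from the cell's own gene. The part of these differences in the results given here was not tested. The gene counts do not show which Sf3b1 allele a read came from.

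After 24 h of estradiol, 6 of the 9 genes were higher in Sf3b1 K700E/+ cells (Atf4, Atf5, Ddit3, Asns, Trib3 and Ppp1r15a), 1 was lower (Eif2ak1), and Chac1 and Sesn2 did not pass the test. The test was edgeR's quasi-likelihood test with Benjamini-Hochberg adjustment over all 12547 genes tested, a gene was called higher or lower at an adjusted p below 0.05, and all 9 genes passed the filter on low counts. Among all genes tested, 21.4% were called higher and 23.1% lower. Atf5, Ddit3, Trib3 and Ppp1r15a also passed the study's threshold of a log2 fold change over 1, which 4.08% of all genes passed upwards and 6.22% downwards. The median log2 fold change was 0.90 over the 9 genes and -0.0099 over all genes. The 9 genes were chosen with earlier results of these data known, so setting them beside all genes is no test. In these bulk libraries, fewer cells that express a gene and less RNA of it per cell cannot be told apart.

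**Figure D1:**
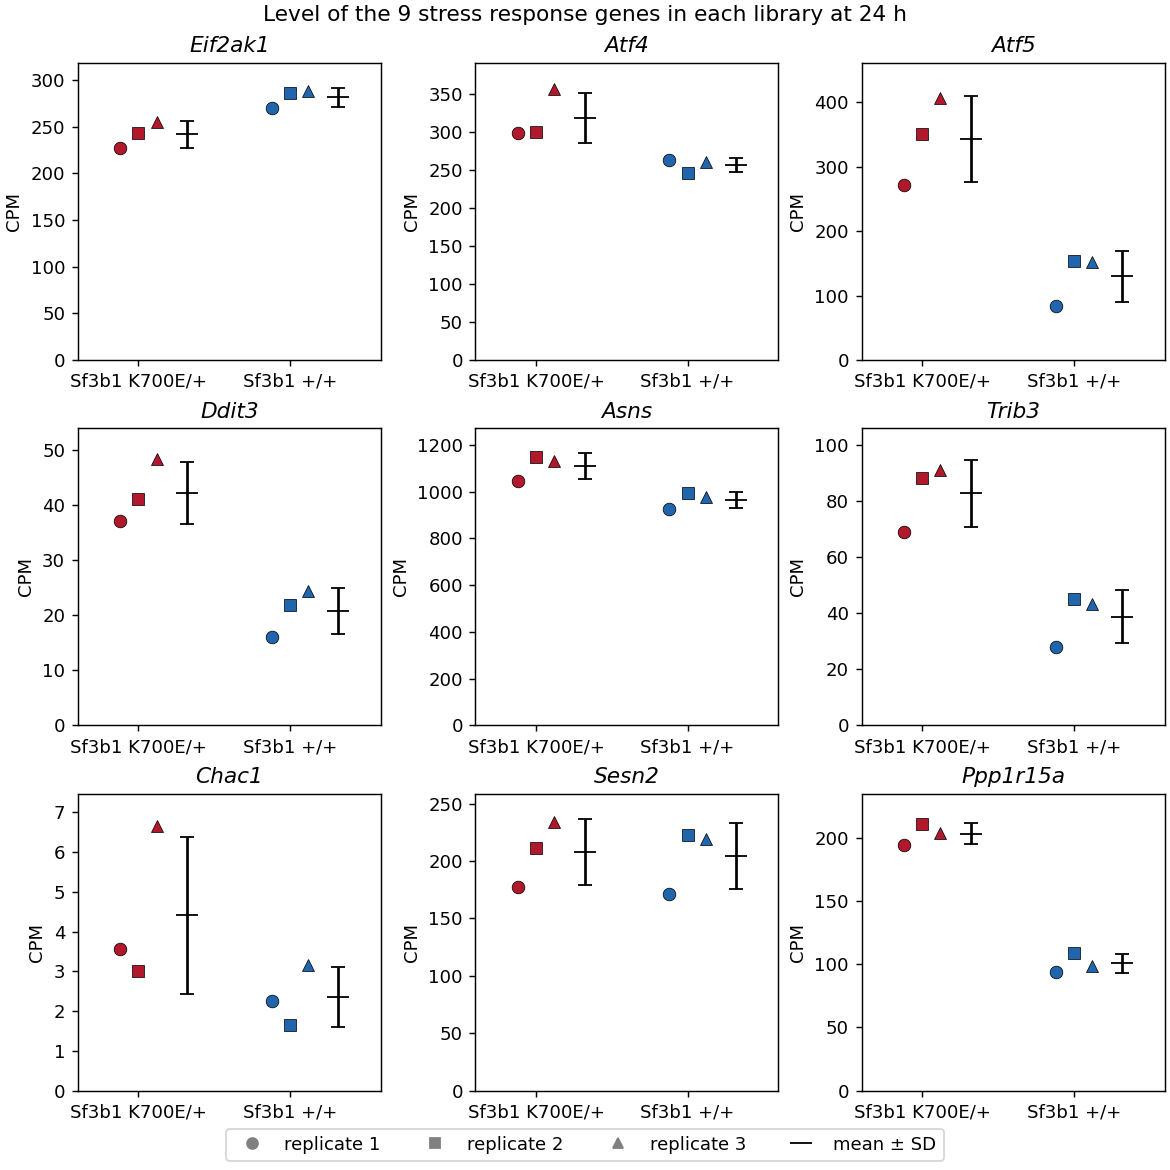
Level of each of the 9 genes in CPM (vertical axis, starting at 0) in the 3 Sf3b1 K700E/+ and 3 Sf3b1 +/+ libraries at 24 h, with the replicate number as the marker and the mean ± SD as the bar. The genotypes do not overlap except for Chac1 and Sesn2, and replicate 1 is the lowest library of both genotypes for every gene but Atf4 and Chac1.

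Eif2ak1, the HRI kinase itself, was the only one of the 9 genes to fall. It was at 227, 243 and 255 CPM in Sf3b1 K700E/+ libraries, against 270, 286 and 288 CPM in Sf3b1 +/+ libraries. Each Sf3b1 K700E/+ library lay below each Sf3b1 +/+ library, as it did for 27.9% of all genes tested. The log2 fold change was -0.22 ± 0.063 (SE; adjusted p = 0.0190), a level 0.859 times that of Sf3b1 +/+ cells. Within same-numbered pairs of libraries it was lower in 3 of 3, with log2 ratios of -0.25, -0.23 and -0.18. The call was lost in the unpaired fit when replicate 1 or 2 of Sf3b1 K700E/+ or replicate 2 or 3 of Sf3b1 +/+ was left out (adjusted p = 0.0744, 0.0630, 0.0843 and 0.0670), but held with the replicate number as a block (adjusted p = 0.00121) and without replicate 1 of both genotypes (adjusted p = 0.00561). Aimp2, a tRNA synthetase scaffold gene that overlaps Eif2ak1 on the opposite strand, had 29.7% as many reads and a log2 fold change of -0.17 (adjusted p = 0.0834). The kinase activity, which heme sets on the protein, is not measured by these counts.

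The other kinases of eIF2 were lower as well. Eif2ak2, which encodes PKR, the kinase that answers double-stranded RNA, averaged 46.5 ± 3.15 CPM in Sf3b1 K700E/+ cells and 56.9 ± 4.22 CPM in Sf3b1 +/+ cells (SD, n = 3 each; log2 fold change -0.29, adjusted p = 0.0132). Eif2ak4, which encodes GCN2, the sensor of uncharged tRNA, averaged 51.6 ± 2.51 CPM in Sf3b1 K700E/+ cells and 60.1 ± 2.31 CPM in Sf3b1 +/+ cells (log2 fold change -0.22, adjusted p = 0.0211). Eif2ak3, which encodes PERK, the kinase of the endoplasmic reticulum, averaged 18.005 ± 0.988 CPM in Sf3b1 K700E/+ cells and 21.6 ± 0.460 CPM in Sf3b1 +/+ cells (log2 fold change -0.26, adjusted p = 0.0228). All 4 kinase genes thus fell, with log2 fold changes between -0.29 and -0.22, while 23.1% of all genes tested were called lower. But of the 3 beside Eif2ak1 none passed without replicate 2 or without replicate 3 of Sf3b1 K700E/+, and 1 passed without replicate 2 of Sf3b1 +/+.

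None of 6 activators and chaperones of HRI passed edgeR's test, with 0 calls by DESeq2 and 1 gene, Oma1, at an unadjusted p below 0.05. Oma1, the mitochondrial protease that cleaves DELE1 under stress, had a log2 fold change of -0.25 ± 0.0964 (adjusted p = 0.0571), with 12.6 ± 0.625 CPM in Sf3b1 K700E/+ cells and 14.97 ± 1.28 CPM in Sf3b1 +/+ cells (SD, n = 3 each). Oma1 was called lower with the replicate number as a block (adjusted p = 0.0119), with scaling by library size alone (adjusted p = 0.0285), without replicate 1 of Sf3b1 +/+ (adjusted p = 0.0192) and without replicate 1 of both genotypes (adjusted p = 0.0252), and its adjusted p lay between 0.0571 and 0.239 in the other fits. The cytosolic chaperone genes Hsp90ab1 and Hsp90aa1, whose products help HRI to mature, had log2 fold changes of -0.09 (adjusted p = 0.294) and 0.08 (adjusted p = 0.300).

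Atf4, the transcription factor at the centre of the response, was modestly higher. It was at 299, 300 and 356 CPM in Sf3b1 K700E/+ libraries, against 263, 246 and 261 CPM in Sf3b1 +/+ libraries. All Sf3b1 K700E/+ libraries lay above all Sf3b1 +/+ libraries, as they did for 26.4% of all genes tested, and replicate 3 of Sf3b1 K700E/+ was the highest. The log2 fold change was 0.31 ± 0.0774 (SE; adjusted p = 0.00987). As Atf4 is set mainly at translation, its messenger level is not a measure of the ATF4 protein.

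Atf5, a related factor whose translation depends on phosphorylated eIF2 in the same manner, had the largest change of the 9 genes. It was at 272, 351 and 406 CPM in Sf3b1 K700E/+ libraries, against 84.0, 154 and 151 CPM in Sf3b1 +/+ libraries. Replicate 1 was the lowest library of either genotype, and the lowest Sf3b1 K700E/+ library still lay well above the highest Sf3b1 +/+ library. The level was 2.64 times that of Sf3b1 +/+ cells (log2 fold change 1.40 ± 0.260, SE; adjusted p = 0.00521), and 2.49% of all genes had a larger log2 fold change. Atf5 overlaps Nup62, a gene on the opposite strand that encodes a nuclear pore protein and was higher too, at 406 ± 13.3 CPM in Sf3b1 K700E/+ cells and 215 ± 12.5 CPM in Sf3b1 +/+ cells (SD, n = 3 each; log2 fold change 0.91, adjusted p = 6.31e-06). The libraries were stranded, but the strand setting of the counting is not given in the sources used here, so how reads of the overlap were shared cannot be told.

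Ddit3, which encodes CHOP, the factor of prolonged stress, was at 37.2, 41.1 and 48.3 CPM in Sf3b1 K700E/+ libraries, against 16.1, 21.8 and 24.3 CPM in Sf3b1 +/+ libraries. The genotypes did not overlap, and replicate 1 was the lowest and replicate 3 the highest library in both. The level was 2.03 times that of Sf3b1 +/+ cells (log2 fold change 1.02 ± 0.153, SE; adjusted p = 0.000756). Mars1, the methionyl-tRNA synthetase gene that overlaps Ddit3 on the opposite strand, had 700% as many reads and averaged 224 ± 9.60 CPM in Sf3b1 K700E/+ cells and 225 ± 8.55 CPM in Sf3b1 +/+ cells (SD, n = 3 each; log2 fold change -0.0083, adjusted p = 0.923). A second identifier with the symbol Ddit3 had 0 reads.

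The other bZIP factors of the response that were tested rose together with these. Cebpg, a C/EBP partner of ATF4, averaged 136 ± 6.86 CPM in Sf3b1 K700E/+ cells and 61.1 ± 5.21 CPM in Sf3b1 +/+ cells (SD, n = 3 each; log2 fold change 1.15, adjusted p = 5.27e-06). Jun, a subunit of AP-1, averaged 21.1 ± 4.04 CPM in Sf3b1 K700E/+ cells and 1.38 ± 0.496 CPM in Sf3b1 +/+ cells (log2 fold change 3.93, adjusted p = 7.37e-06). Cebpb averaged 27.3 ± 1.496 CPM in Sf3b1 K700E/+ cells and 20.1 ± 3.97 CPM in Sf3b1 +/+ cells (log2 fold change 0.44, adjusted p = 0.0228), and lost its call without replicate 1 or without replicate 2 of Sf3b1 K700E/+ (adjusted p = 0.0577 and 0.0682). Atf3 and Nfil3 did not pass the filter on low counts.

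Among the targets, Asns, the enzyme that makes asparagine, was the most abundant and moved little. It was at 1046, 1150 and 1132 CPM in Sf3b1 K700E/+ libraries, against 927, 993 and 977 CPM in Sf3b1 +/+ libraries. The genotypes did not overlap, and replicate 1 was the lowest library of each. The log2 fold change was 0.20 ± 0.0624 (SE; adjusted p = 0.0266). Within same-numbered pairs it was higher in 3 of 3, by 0.17, 0.21 and 0.21 on the log2 scale. The call was lost in the unpaired fit without replicate 2 or 3 of Sf3b1 K700E/+ (adjusted p = 0.105 and 0.0743) and without replicate 3 of Sf3b1 +/+ (adjusted p = 0.0649), but held with the replicate number as a block (adjusted p = 0.00275) and without replicate 1 of both genotypes (adjusted p = 0.00389).

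Trib3, a pseudokinase that binds AKT and ATF4 and dampens the response, was at 69.0, 88.2 and 91.1 CPM in Sf3b1 K700E/+ libraries, against 27.9, 45.1 and 43.1 CPM in Sf3b1 +/+ libraries. Replicate 1 was again the lowest library of both genotypes, and the genotypes did not overlap. The level was 2.14 times that of Sf3b1 +/+ cells (log2 fold change 1.09 ± 0.189, SE; adjusted p = 0.00259).

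Chac1, an enzyme that degrades glutathione, was rare: it had 178, 135 and 285 reads in Sf3b1 K700E/+ libraries, against 89, 68 and 129 reads in Sf3b1 +/+ libraries. This was 3.55, 3.01 and 6.66 CPM in Sf3b1 K700E/+ libraries, against 2.24, 1.66 and 3.17 CPM in Sf3b1 +/+ libraries. Replicate 2 of Sf3b1 K700E/+ lay below replicate 3 of Sf3b1 +/+, so that the genotypes overlapped. The log2 fold change of 0.90 ± 0.335 (SE) missed the threshold (adjusted p = 0.0575). Within each same-numbered pair of libraries Chac1 was higher in Sf3b1 K700E/+, by 0.66, 0.86 and 1.07 on the log2 scale, and it passed in the fit with the replicate number as a block (adjusted p = 0.000102).

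Sesn2, a stress-induced inhibitor of mTORC1 that senses leucine, was at 177, 211 and 234 CPM in Sf3b1 K700E/+ libraries, against 171, 222 and 219 CPM in Sf3b1 +/+ libraries. The genotypes overlapped nearly completely, and replicate 1 was the lowest library in both. The log2 fold change was 0.02 ± 0.124 (SE; adjusted p = 0.895), and its sign turned with the scaling and with the libraries used. The sign also differed between same-numbered pairs, at 0.05, -0.07 and 0.10 on the log2 scale.

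Ppp1r15a, which encodes GADD34, the stress-induced subunit that directs protein phosphatase 1 to eIF2, had the lowest adjusted p of the 9 genes. It was at 195, 211 and 204 CPM in Sf3b1 K700E/+ libraries, against 94.1, 109 and 98.7 CPM in Sf3b1 +/+ libraries. The Sf3b1 K700E/+ libraries all lay near a common level, far above the Sf3b1 +/+ libraries. The level was 2.02 times that of Sf3b1 +/+ cells (log2 fold change 1.01 ± 0.0705, SE; adjusted p = 6.77e-06). Tulp2, which overlaps Ppp1r15a on the opposite strand, had 15.9% as many reads and was higher as well, at 38.1 ± 6.15 CPM in Sf3b1 K700E/+ cells and 9.10 ± 3.96 CPM in Sf3b1 +/+ cells (SD, n = 3 each; log2 fold change 2.07, adjusted p = 0.000842).

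**Figure D2:**
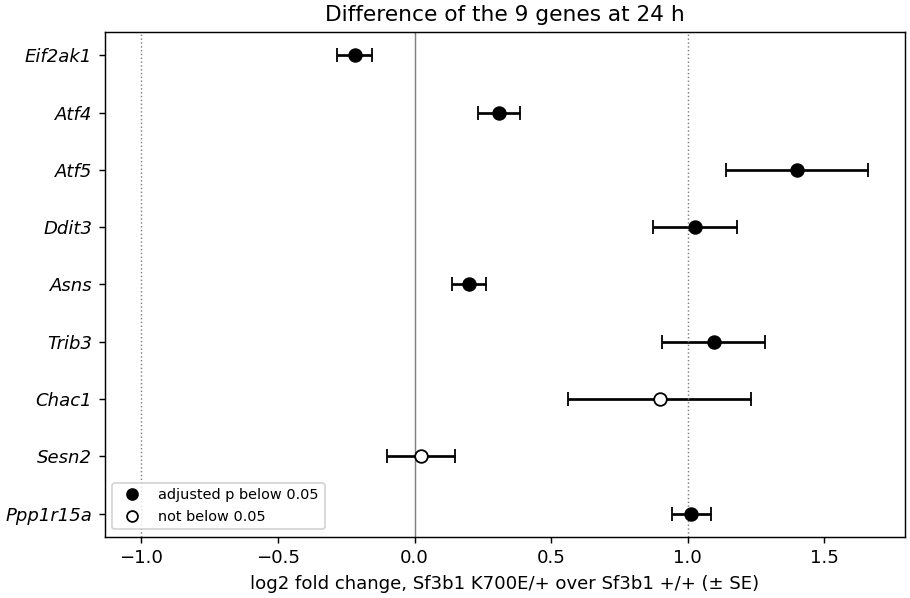
Log2 fold change of Sf3b1 K700E/+ over Sf3b1 +/+ at 24 h (horizontal axis) for the 9 genes, with the SE as the bar, filled points for an adjusted p below 0.05 and dotted lines at log2 fold changes of -1 and 1. Atf5, Trib3, Ddit3 and Ppp1r15a lie between 1.01 and 1.40, Atf4 and Asns at 0.31 and 0.20, and Eif2ak1 at -0.22.

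The other phosphatase genes moved little. Ppp1r15b, the constitutive counterpart of Ppp1r15a, averaged 528 ± 38.9 CPM in Sf3b1 K700E/+ cells and 464 ± 17.3 CPM in Sf3b1 +/+ cells (SD, n = 3 each; log2 fold change 0.19, adjusted p = 0.0495). Of the catalytic subunits, Ppp1cb rose (log2 fold change 0.29, adjusted p = 0.0135) and Ppp1ca fell (log2 fold change -0.15, adjusted p = 0.0461). The calls of Ppp1r15b and Ppp1ca lay close to the threshold, and both were lost whichever single library was left out.

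Compared per kilobase of exon, the level of the 9 genes spanned a wide range, and its order differed between the genotypes. In Sf3b1 K700E/+ cells Asns led with 406 ± 20.4 CPM per kilobase (SD, n = 3), followed by Atf5 (172 ± 33.8), Atf4 (135 ± 13.8), Ppp1r15a (69.2 ± 2.82), Sesn2 (59.7 ± 8.27), Eif2ak1 (42.6 ± 2.48), Trib3 (38.9 ± 5.66), Ddit3 (24.7 ± 3.30) and Chac1 (2.69 ± 1.21), all in CPM per kilobase. Within that order the ranges of mean ± SD overlapped between Atf5 and Atf4, between Ppp1r15a and Sesn2, and between Eif2ak1 and Trib3. In Sf3b1 +/+ cells the order was Asns (353 ± 12.4), Atf4 (109 ± 3.95), Atf5 (65.2 ± 19.97), Sesn2 (58.8 ± 8.21), Eif2ak1 (49.6 ± 1.76), Ppp1r15a (34.3 ± 2.63), Trib3 (18.2 ± 4.42), Ddit3 (12.1 ± 2.47) and Chac1 (1.44 ± 0.467), where neither Atf5 and Sesn2 nor Sesn2 and Eif2ak1 differed beyond their spread. Atf5 thus stood above Atf4 in Sf3b1 K700E/+ cells and below it in Sf3b1 +/+ cells, and Ppp1r15a stood above Eif2ak1 in Sf3b1 K700E/+ cells and below it in Sf3b1 +/+ cells. The lengths join the exons of all annotated transcripts of a gene, and the annotation used for counting is not given. The order between genes depends on these lengths.

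**Figure D3:**
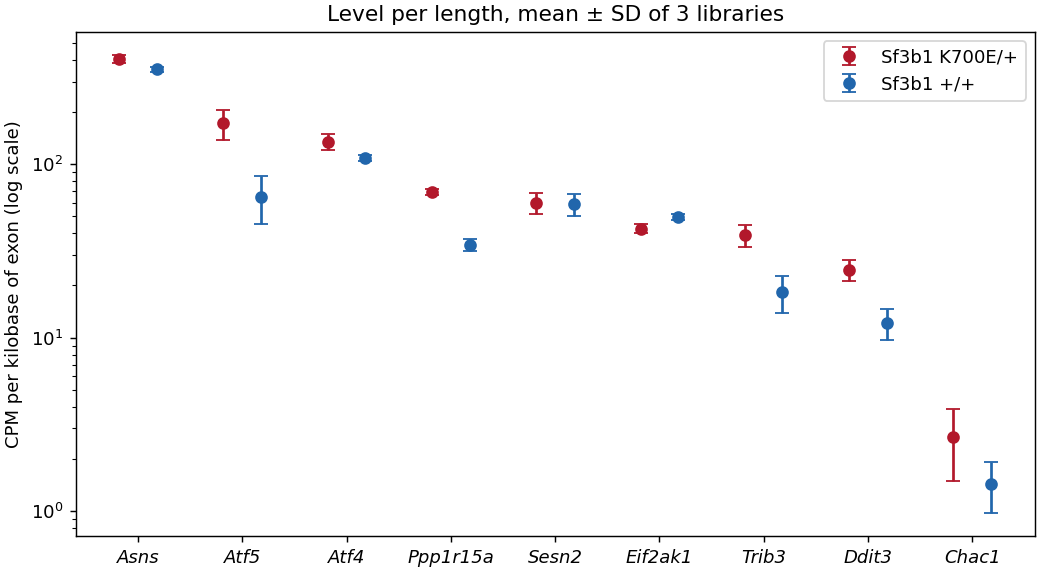
Level per length of the 9 genes in CPM per kilobase of exon (vertical axis, log scale), as mean ± SD of 3 Sf3b1 K700E/+ libraries (left point of each pair) and 3 Sf3b1 +/+ libraries (right point). Asns is the highest at 406 CPM per kilobase with Sf3b1 K700E/+ and 353 with Sf3b1 +/+, and Chac1 the lowest at 2.69 with Sf3b1 K700E/+ and 1.44 with Sf3b1 +/+.

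Replicate 1 was the lowest library of both genotypes for Atf5, Ddit3 and Trib3, as it was for Eif2ak1, Asns, Sesn2 and Ppp1r15a. Likeness was measured as the root mean square difference of log2 CPM, centred on the mean of each gene, over 6 libraries and 8770 genes. It takes in the difference between the genotypes as well as that between replicates. The gene most like Trib3 was Ddit3 (0.110), and Trib3 was second to Btg2, an antiproliferative gene (0.0814), in its likeness to Ddit3, followed by Zhx2 (0.114). Those most like Atf5 were Pde3b, a phosphodiesterase (0.0951), Angptl6 (0.151) and Unc13b (0.181), with Trib3 in place 5 (0.182). Pde3b (0.114) and Angptl6 (0.140) were also next to Ddit3 in likeness to Trib3. Ppp1r15a was in place 53 for Atf5 (0.353), 40 for Ddit3 (0.183) and 35 for Trib3 (0.206). Atf4 was in place 1335 for Atf5 (0.653), 1229 for Ddit3 (0.416) and 1335 for Trib3 (0.483). For Atf5, Ddit3 and Trib3 alike, the places of Ppp1r15a, Atf4, Asns, Sesn2 and Eif2ak1 followed the order of their log2 fold changes. Those were 1.01, 0.31, 0.20, 0.02 and -0.22. The places therefore do not separate a shared replicate pattern from a similar difference between the genotypes. A shared replicate pattern was not tested.

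A wider set of 131 genes of the pathway, in 12 lists without the 9 genes, had 121 genes that passed the filter. Of these, 52 (43.0%) were higher and 16 (13.2%) lower in Sf3b1 K700E/+ cells, against 21.4% and 23.1% of all genes tested, and their median log2 fold change was 0.14. With the replicate number as a block the numbers were 61 and 25, among them 1 lower gene each for eIF2 and eIF2B and for the transporters, 2 each for tRNA charging and for NRF2, 3 for stress output, and 1 higher gene for the endoplasmic reticulum, and without replicate 2 of Sf3b1 +/+ they were 48 and 10. Most genes that rose belonged to the lists of amino acid supply and tRNA charging, and 7 of the 16 that fell to the list of the endoplasmic reticulum. The lists were chosen with earlier results of these data known, so setting their shares beside those of all genes is no test. Numbers of each list below stand beside the same shares of all genes, 21.4% higher and 23.1% lower.

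Of 11 tested genes of amino acid and one-carbon synthesis, 9 were higher by edgeR, 10 at an unadjusted p below 0.05 and 9 by DESeq2. None was lower in any of these. Got1, the aspartate aminotransferase of the cytosol, averaged 88.0 ± 4.97 CPM in Sf3b1 K700E/+ cells and 44.5 ± 2.23 CPM in Sf3b1 +/+ cells (SD, n = 3 each; log2 fold change 0.98, adjusted p = 7.09e-06). Pycr1, a proline synthesis enzyme, averaged 15.96 ± 1.52 CPM in Sf3b1 K700E/+ cells and 7.18 ± 1.04 CPM in Sf3b1 +/+ cells (log2 fold change 1.15, adjusted p = 9.27e-05). Mthfd2, of the mitochondrial folate cycle, had a log2 fold change of 0.54 (adjusted p = 0.000111). Their log2 fold changes were above that of Asns, from the same group, but these differences between genes were not tested.

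Of 9 tested amino acid transporters, 5 were higher and none was lower by edgeR, with 1 lower at an unadjusted p below 0.05 and 1 by DESeq2. The leucine transporter gene Slc7a5 averaged 423 ± 26.3 CPM in Sf3b1 K700E/+ cells and 211 ± 25.7 CPM in Sf3b1 +/+ cells (SD, n = 3 each; log2 fold change 1.00, adjusted p = 3.06e-05). The glutamine transporter gene Slc1a5 averaged 79.6 ± 2.33 CPM in Sf3b1 K700E/+ cells and 36.7 ± 2.65 CPM in Sf3b1 +/+ cells (log2 fold change 1.12, adjusted p = 4e-06). Slc6a9, the glycine transporter that erythroid cells use for heme synthesis, had a log2 fold change of 0.47 (adjusted p = 0.000353).

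Of 19 genes for cytosolic tRNA synthetases and tRNA export, 14 were higher and 1 was lower. Cars, the cysteinyl-tRNA synthetase gene, averaged 320 ± 15.4 CPM in Sf3b1 K700E/+ cells and 104 ± 2.24 CPM in Sf3b1 +/+ cells (SD, n = 3 each; log2 fold change 1.62, adjusted p = 2.22e-07). Xpot, which exports tRNA from the nucleus, had a log2 fold change of 0.72 (adjusted p = 1.32e-05). Yars, the tyrosyl-tRNA synthetase gene, was the exception, with 130 ± 7.03 CPM in Sf3b1 K700E/+ cells and 241 ± 1.75 CPM in Sf3b1 +/+ cells (log2 fold change -0.89, adjusted p = 5.44e-06).

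**Figure D4:**
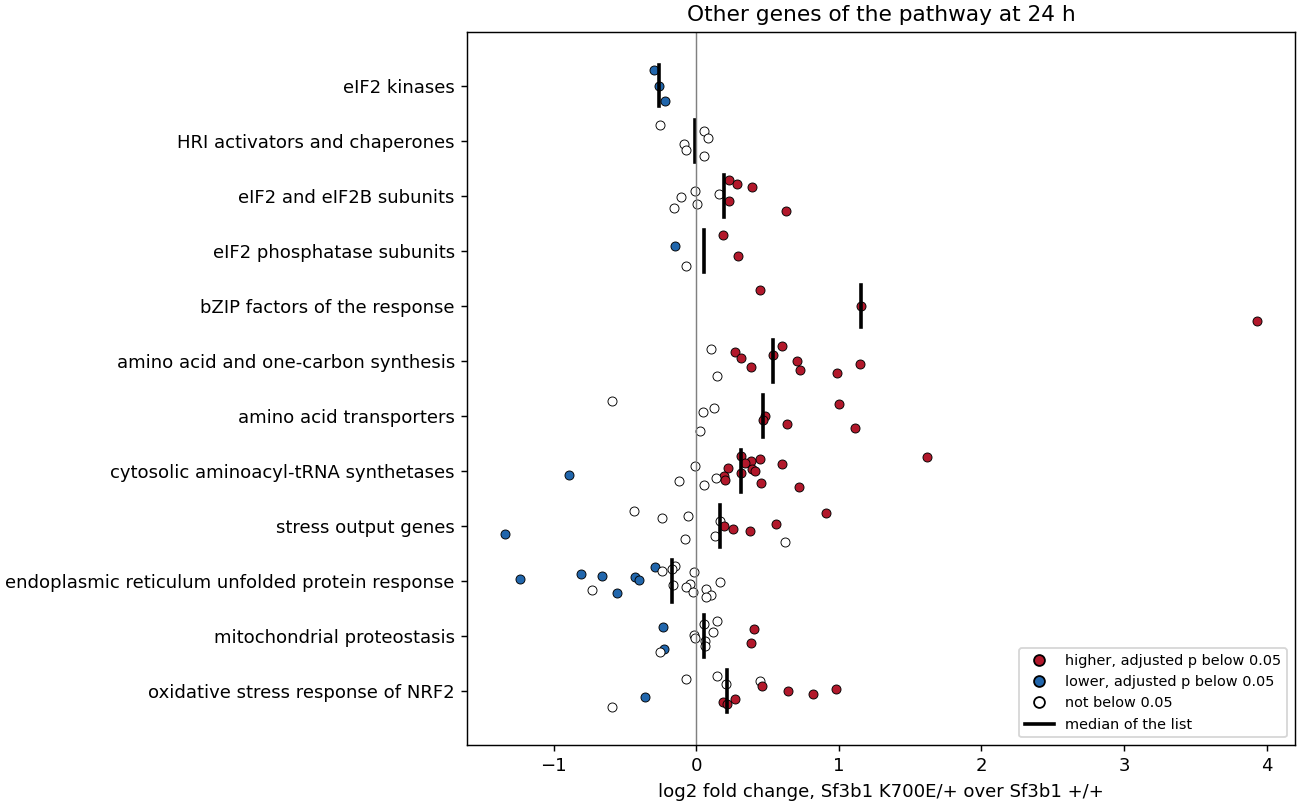
Log2 fold change of Sf3b1 K700E/+ over Sf3b1 +/+ at 24 h (horizontal axis) for each tested pathway gene other than the 9, by list, coloured by its call, with a black bar at the median of the list. Points lie mostly right of 0 for synthesis, transporters and tRNA synthetases (medians 0.54, 0.47 and 0.31) and left of 0 for the endoplasmic reticulum list (median -0.17). Oma1 and Slc7a11 appear in more than 1 list.

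The initiation factors themselves rose in part. Of 10 genes for eIF2, eIF2B and associated factors, 5 were higher and none was lower by edgeR, with 1 lower at an unadjusted p below 0.05 and 0 by DESeq2. Eif5, which promotes GTP hydrolysis by eIF2, averaged 1481 ± 14.8 CPM in Sf3b1 K700E/+ cells and 958 ± 62.2 CPM in Sf3b1 +/+ cells (SD, n = 3 each; log2 fold change 0.63, adjusted p = 6.03e-05). Eif2s3x and Eif2s2, the gamma and beta subunits of eIF2, had log2 fold changes of 0.39 (adjusted p = 0.00411) and 0.29 (adjusted p = 0.00874).

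Of 13 tested stress output genes beside Trib3, Chac1 and Sesn2, 5 (38.5%) were higher and 1 (7.69%) was lower, against 21.4% and 23.1% of all genes. Nupr1, a small chromatin protein of the stress response, averaged 34.0 ± 5.30 CPM in Sf3b1 K700E/+ cells and 18.1 ± 2.08 CPM in Sf3b1 +/+ cells (SD, n = 3 each; log2 fold change 0.91, adjusted p = 0.000426). Ero1a, an oxidase of disulfide formation, had a log2 fold change of 0.56 (adjusted p = 0.00794), and Rhbdd1, a rhomboid protease, of 0.38 (adjusted p = 0.00988). Without replicate 3 of Sf3b1 K700E/+ or replicate 3 of Sf3b1 +/+, 3 of these genes were higher. Gdf15, Fgf21, Stc2 and Vldlr did not pass the filter on low counts.

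The unfolded protein response of the endoplasmic reticulum, which shares PERK and CHOP with the integrated stress response, was lower in part. Of its 20 genes, none was higher by edgeR, with 1 higher at an unadjusted p below 0.05 and 1 by DESeq2. There were 7 lower genes (35%, against 23.1% of all genes tested), and 11 when replicate 1 of Sf3b1 +/+ was left out. The disulfide isomerase gene Pdia4 averaged 28.4 ± 2.49 CPM in Sf3b1 K700E/+ cells and 49.6 ± 5.35 CPM in Sf3b1 +/+ cells (SD, n = 3 each; log2 fold change -0.81, adjusted p = 0.000166). Dnajc3, a co-chaperone that inhibits PKR and PERK, averaged 104 ± 7.71 CPM in Sf3b1 K700E/+ cells and 152 ± 7.24 CPM in Sf3b1 +/+ cells (log2 fold change -0.56, adjusted p = 0.000225). Pdia6 had a log2 fold change of -0.66 (adjusted p = 0.000273).

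Among 12 genes of mitochondrial proteostasis, 2 (16.7%) were higher and 2 (16.7%) were lower. Both shares were below the 21.4% and 23.1% of all genes tested. Dnaja3 and Lonp1, a co-chaperone and a protease of the matrix, had log2 fold changes of 0.39 (adjusted p = 0.000546) and 0.40 (adjusted p = 0.00262), and Hspa9, the matrix chaperone, of -0.23 (adjusted p = 0.0115). When replicate 1 of both genotypes was left out, 5 of these genes were higher. Among 13 genes of the oxidative stress response of NRF2, 7 (53.8%) were higher and 1 (7.69%) was lower. Gclc, the rate-limiting enzyme of glutathione synthesis, averaged 208 ± 3.40 CPM in Sf3b1 K700E/+ cells and 105 ± 8.53 CPM in Sf3b1 +/+ cells (SD, n = 3 each; log2 fold change 0.98, adjusted p = 6.83e-06), and Srxn1 and Txnrd1 had log2 fold changes of 0.82 (adjusted p = 0.000438) and 0.64 (adjusted p = 0.000482).

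The promoter letters were set beside these directions. Promoter windows were found for 100 of the 131 pathway genes. Of the pathway genes named above that had no window, Cars, Slc1a5, Slc7a5, Gclc and Ppp1r15b rose, and Ppp1ca and Hspa9 fell. Of 13 tested genes with TGATGNAA, 10 were higher, 1 was lower (Yars) and 2 did not pass. Of 80 without it, 30 were higher and 11 lower, against 21.4% and 23.1% of all genes tested. The lists were chosen around this response. Directions of other genes with these letters were not counted, so a link between letters and direction was not tested. Of 7 tested genes with the ER stress element, all in the endoplasmic reticulum list, none was higher, 4 were lower and 3 did not pass. Windows of named genes that rose and of Yars, which fell, are printed first, with TGATGNAA or its reverse complement in capitals, and those of Pdia6 and Dnajc3 after them, with the ER stress element in capitals.
Got1, chr19:43524689-43524718: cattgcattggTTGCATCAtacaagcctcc
Eif2s3x, chrX:94212729-94212758: ttcgccatcatTTTCATCAggtctatgccg
Pycr1, chr11:120643833-120643862: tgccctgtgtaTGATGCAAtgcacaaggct
Nupr1, chr7:126625562-126625591: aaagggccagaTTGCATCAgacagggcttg
Yars, chr4:129189895-129189924: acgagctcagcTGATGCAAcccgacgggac
Pdia6, chr12:17266486-17266514: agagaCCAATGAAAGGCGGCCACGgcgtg
Dnajc3, chr14:118937822-118937850: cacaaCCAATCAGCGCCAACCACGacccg
The full letters TGATGCAA, on either strand, were thus present in Yars as in Chac1, Got1, Pycr1 and Nupr1. Binding was not measured here, so a match describes the letters of these windows only.

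Splicing of the 9 genes was measured for 3 events, in Ddit3 and Ppp1r15a, and the event table held none for the other 7 genes. Inclusion was given as PSI, the part of an event's reads that fell on its longer path once both paths were scaled to their lengths, and an event was called changed at an adjusted p below 0.05 and a PSI difference over 0.10. None of the 3 events was called, against 6.33% of 18038 events tested in the series. At an adjusted p below 0.05 alone, 1 of the 3 passed, against 9.54% of all events.

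That event was the retention of a 244-nucleotide intron of Ddit3 (chr10:127131308-127131630, GRCm39, plus strand), with both splice sites annotated and outside the coding sequence. Lower retention was not particular to Ddit3: of 5706 intron retention events tested, 495 were lower and 83 higher at an adjusted p below 0.05. The PSI of the Ddit3 intron was 0.0543, 0.0479 and 0.0323 in Sf3b1 K700E/+ libraries, against 0.159, 0.118 and 0.134 in Sf3b1 +/+ libraries. No Sf3b1 K700E/+ library reached the lowest Sf3b1 +/+ library. The mean PSI was 0.0448 ± 0.0113 in Sf3b1 K700E/+ cells, against 0.137 ± 0.0204 in Sf3b1 +/+ cells (SD, n = 3 each; difference -0.0922, adjusted p = 2.72e-06), just short of the PSI threshold, which it passed when replicate 2 of Sf3b1 +/+ was left out (-0.102). The values of the authors for the same event were 0.04, 0.03 and 0.02 in Sf3b1 K700E/+ libraries, against 0.12, 0.1 and 0.1 in Sf3b1 +/+ libraries.

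The difference lay in both paths. The spliced path had 324, 306 and 366 reads in Sf3b1 K700E/+ libraries, against 83, 146 and 153 reads in Sf3b1 +/+ libraries, or 7.16 ± 1.00 RPM in Sf3b1 K700E/+ cells, against 3.18 ± 0.908 RPM in Sf3b1 +/+ cells, where RPM are reads scaled to 1000000 counts of the plain library total, without the TMM factors used for CPM. The retained path had 76, 63 and 50 reads in Sf3b1 K700E/+ libraries, against 64, 80 and 97 reads in Sf3b1 +/+ libraries, or 1.34 ± 0.194 RPM in Sf3b1 K700E/+ cells, against 2.01 ± 0.386 RPM in Sf3b1 +/+ cells (SD, n = 3 each). Scaled in this way, every Sf3b1 K700E/+ library was above every Sf3b1 +/+ library on the spliced path and below every one on the retained path. No exon of Mars1 or of a gene with another symbol covers the 244-nucleotide intron of Ddit3 in the GENCODE M21 annotation. Exons of the second identifier with the symbol Ddit3, which had 0 reads, were not checked. When only reads across junctions were counted, the PSI was 0.0137 in Sf3b1 K700E/+ cells, against 0.0445 in Sf3b1 +/+ cells, a difference of -0.0309 (adjusted p = 0.00385).

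**Figure D5:**
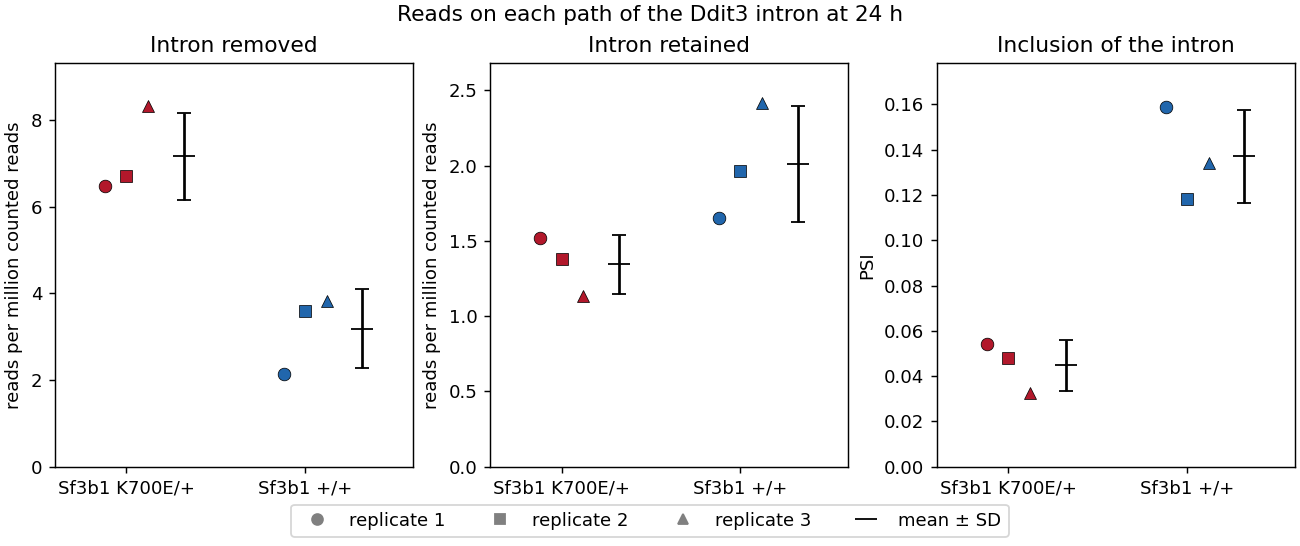
RPM on the path without the Ddit3 intron (left), on the path that retains it (middle), and the resulting PSI (right), in 3 Sf3b1 K700E/+ and 3 Sf3b1 +/+ libraries at 24 h, with mean ± SD as the bar and axes starting at 0. Sf3b1 K700E/+ libraries average 7.16 RPM on the spliced path and a PSI of 0.0448, against 3.18 RPM and a PSI of 0.137 in Sf3b1 +/+ libraries.

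The other events did not differ beyond the spread between libraries. A 48-nucleotide exon of Ddit3 (chr10:127126720-127131228, GRCm39) had a PSI of 0.918 ± 0.0418 in Sf3b1 K700E/+ cells, against 0.944 ± 0.0101 in Sf3b1 +/+ cells (SD, n = 3 each; adjusted p = 0.434). A 3-nucleotide difference in a repeated stretch of Ppp1r15a, for which the event table gives no position, had a PSI of 0.329 ± 0.0101 in Sf3b1 K700E/+ cells, against 0.337 ± 0.0230 in Sf3b1 +/+ cells (SD, n = 3 each; adjusted p = 0.900).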

How the data were processed

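RNA sequencing of G1E-ER4 cells at 24 h of estradiol was analysed in 3 Sf3b1 K700E/+ and 3 Sf3b1 +/+ libraries. Libraries at 0 h were not analysed here. Stranded, polyA-selected reads had been aligned by the authors with STAR 2.7.9 on GRCm39, and the deposited gene table holds raw counts. The study's software list, which names a human reference for its RNA sequencing, gives STAR also for counting, fastp for trimming and samblaster for removal of duplicate reads. The mouse annotation and the strand setting of the counting are not given in the sources used here. They also deposited, per splicing event found by KisSplice, packed read numbers of both paths and PSI values as fractions.

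In R 4.3.3, counts were tested with edgeR 4.0.16 (filterByExpr by genotype, TMM, quasi-likelihood F test, Benjamini-Hochberg adjustment), and the SE is the log2 fold change over the root of F. Reads of both files of a library were summed per path, and 18038 events that reached 10 reads in each library, and whose path lengths are given, were fitted in edgeR with terms for library, path, and path by genotype. Both steps were tested on simulated data, whose libraries were drawn independently and had no shared replicate pattern, unlike the real ones. Alternatives used DESeq2 1.42.0, limma 3.58.1, other scalings, filters, read minimums and PSI thresholds, a replicate block, and leaving out libraries. Exon lengths and overlaps came from GENCODE M21.

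The 9 genes and the lists were chosen with earlier results of these data known. Other genes named are, per list, up to 3 with the lowest adjusted p, and the 3 most like Atf5, Ddit3 and Trib3. Nup62, Mars1, Tulp2 and Aimp2 are named for their overlap. Deviations from the genotype means correlated between libraries of the same number (0.627, 0.484 and 0.480, over 8771 genes), so the numbers were taken to pair the libraries.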

Additional observations from a re-analysis of the deposited data

How the results depend on the processing

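Of 126 log2 fold changes of the 9 genes under alternatives, 123 kept their direction and 111 also kept their side of the threshold. Those that reversed were of Sesn2, at -0.0206 with library size alone, -0.0678 without replicate 3 of Sf3b1 K700E/+ and -0.0870 without replicate 1 of Sf3b1 +/+ (up to 0.13 without replicate 1 of Sf3b1 K700E/+). The count of genes higher was 6, and 7 with DESeq2, with no filter on low counts and with the replicate block, where Chac1 passed (adjusted p = 0.0124, 1.4e-05 and 0.000102). It ranged from 5 to 6 when 1 library was left out, and the count of genes lower from 0 to 1. Of the other pathway genes, 52 were higher, or 43 to 53 with 1 library left out, and 16 were lower, or 10 to 22. The replicate block, which uses the pairing of libraries, gave 61 higher and 25 lower, and changed no other call of the 9 genes. Leaving out replicate 1 of both genotypes, chosen after seeing the data, gave 6 higher and 1 lower of the 9 genes and 60 higher and 22 lower of the others. Events of the 9 genes called changed were 0, or 0 to 1 with 1 library left out. The PSI difference in Ppp1r15a ranged from -0.0160 to 0.00461 with 1 library left out. The causes were not tested. With 3 libraries a genotype, the unpaired calls of Eif2ak1 and Asns were lost without some single libraries, while both held with the replicate block (adjusted p = 0.00121 and 0.00275). Chac1 had 68 to 285 reads per library.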

Other observations

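HRI is held inactive by heme, and Alas2 encodes the first enzyme of erythroid heme synthesis. Alas2 averaged 293 ± 90.3 CPM in Sf3b1 K700E/+ cells and 201 ± 44.8 CPM in Sf3b1 +/+ cells (SD, n = 3 each), with overlapping libraries (edgeR log2 fold change 0.54, adjusted p = 0.153). Among the erythroid markers, Gfi1b, a transcriptional repressor, was higher (log2 fold change 0.34, adjusted p = 0.00439). The globin gene Hbb-bt was lower, at 42.3 ± 19.1 CPM in Sf3b1 K700E/+ cells and 133 ± 48.3 CPM in Sf3b1 +/+ cells (log2 fold change -1.66, adjusted p = 0.0182). The more abundant globin gene Hbb-bs was at 4414 ± 1628 CPM in Sf3b1 K700E/+ cells and 6585 ± 1535 CPM in Sf3b1 +/+ cells, and did not pass (adjusted p = 0.178); the near-identical beta globin genes share reads, so the split between them is uncertain. These genes were singled out after their values were seen.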
